A study of Paralichthys olivaceus with 24 samples.

Results

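Japanese flounder (Paralichthys olivaceus) is a flatfish of the sea, and its spleens from fish kept at 25 °C were set against spleens of fish kept at 15 °C, all of them 3 h after poly(I:C). The 6 arrays were chosen by their titles from the 24 arrays of the series: 3 of poly(I:C) fish at 25 °C and 3 h, and 3 of such fish kept at 15 °C. Poly(I:C) is a synthetic double-stranded RNA that stands in for viral RNA, and control fish received DEPC-treated water, that is, water treated to remove RNases. Further groups of 3 arrays each were used beside them. They were poly(I:C) fish at 24 h and water fish at 3 h and 24 h, each both cool (15 °C) and warm (25 °C). Warm water fish at 24 h had no comparison of their own, but entered the fit, the filter and values over all water groups. Dose, route, strain, age and sex, and whether an array held 1 fish or a pool, are not given in the sources used here. The p-values therefore cover only the variation among these samples, possibly technical in origin.

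Double-stranded RNA is a sign of viral infection in vertebrates, fish included. It is bound by Toll-like receptors of the endosome and by RIG-I-like receptors of the cytosol, which switch on type I interferons. These in turn raise a large set of antiviral genes, such as the Mx proteins, in the same and in neighbouring cells. Fish take on the temperature of the water, so the speed of such a cascade can depend on temperature. The spleen is a main lymphoid organ of fish and also filters and stores blood cells.

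The arrays were single-colour (Cy3) Agilent arrays of 14481 probes. Targets carry only contig codes or accessions of sequence databases, without gene names, and 0 of 14478 such names were found in NCBI's gene table for this species. The results are therefore given by probe and by class of probes. No marker of a spleen cell type could be named, so the mix of cells was not checked, and fewer cells of a type and less RNA per cell cannot be told apart. Signals are log2 values relative to the 75th percentile of their array, so that 0 lies at that percentile and a difference of 1 is 2-fold. Testing required a signal well above background in every array of 1 or more of the 8 groups, which 13377 probes met.

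The 6 arrays were alike in brightness at the 75th percentile, which was 464 to 593.6 units at 25 °C and 481.5 to 678.1 units at 15 °C. Relative to it the array medians were lower at 25 °C, at -2.049 to -2.021 log2, against -1.85 to -1.815 at 15 °C. Between 87.71% and 91.08% of probes were well above background at 25 °C, against 80.6% to 84.23% at 15 °C. Within a group, probes had a median SD of 0.191 at 25 °C and 0.163 at 15 °C. Arrays correlated across probes at 0.983 to 0.988 within 25 °C and 0.982 to 0.984 within 15 °C, and at 0.927 to 0.942 between the temperatures. All 3 arrays at 25 °C lay on slide 2 and all 3 at 15 °C on slide 1, and each slide had its own scan, so no value within 1 slide exists for this comparison. The only group with arrays on both slides was water at 15 °C and 3 h.

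The poly(I:C) spleens at 3 h differed widely between the temperatures. As the temperatures lay on separate slides, this difference cannot be assigned to temperature alone. At an adjusted p under 0.05 (limma with Benjamini-Hochberg adjustment), 6312 of 13377 probes (47.2%) differed. At 25 °C 2724 probes were higher (20.4%) and 3588 were lower (26.8%). The groups did not overlap for 7952 probes (59.4%), with 25 °C on top for 3615 (27%) and below for 4337 (32.4%). Called and without overlap were 6088 (45.5%), and 1864 (13.9%) had no overlap but were not called. The called probes had a median change of 0.88 log2 in size, against a median SE of 0.20 over all probes. In place of 6312, 2819 probes were called with the slide fitted as a block and 2732 with another background correction (normexp). With arrays set to spike-in controls 2932 were called. The other settings run stayed closer to 6312.

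Which direction held more probes depended on the scaling. Over all probes the median change was -0.05 log2 with the 75th percentile, 0.15 when arrays were set to their medians and -0.24 when they were set to spike-in controls. With median scaling 3915 of 6447 called probes were higher at 25 °C, and with spike-in scaling 846 of 2932. The balance of large changes moved as well. By 4-fold or more, 264 probes rose and 206 fell. The numbers were 163 and 40 with normexp, a model-based background correction, 349 and 139 with median scaling, 204 and 130 with a stricter filter, and 212 and 302 with spike-in scaling, where the order turned. By 8-fold or more, 93 rose and 28 fell, and in every setting run more were higher, from 56 against 5 with normexp to 76 against 42 with spike-in scaling. By 16-fold or more, 28 rose and 4 fell. Of the 264 probes, 36 were not well above background on any array at 15 °C, and of the 206, 31 were not on any array at 25 °C, so those folds are not fully measured.

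The calls also depended on the level of the probe. Tested probes were split into 5 equal classes by mean signal over all 24 arrays. In the dimmest class 14.6% were called higher and 13.9% lower, with a median SE of 0.33. In the middle class 18% were higher and 34.5% lower. In the brightest class 31.7% were higher and 23.1% lower, with a median SE of 0.17. The median change was 0.06, -0.19, -0.18, -0.07 and 0.13 log2 from the dimmest to the brightest class. The cause of this dependence on level was not tested.

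**Figure D1:**
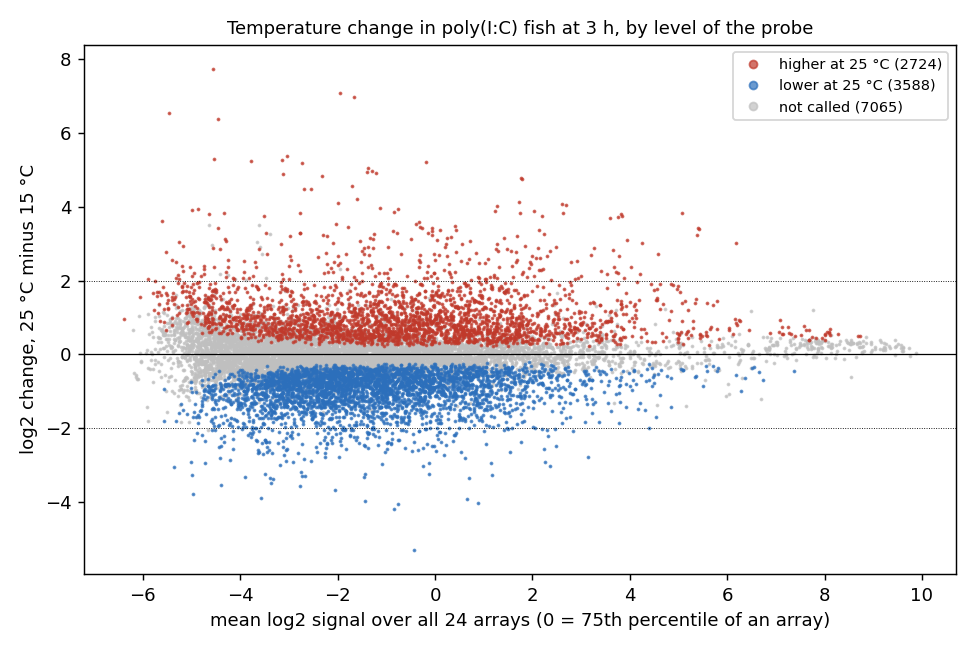
Log2 change between 25 °C and 15 °C in poly(I:C) fish at 3 h (vertical axis) against the mean log2 signal over all 24 arrays (horizontal axis), 1 point per tested probe. Red points are the 2724 probes higher at 25 °C, blue points the 3588 lower and grey points the 7065 not called, and dotted lines mark 4-fold. The largest changes lie above the line, up to 7.74 log2, against -5.30 log2 below it.

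Some probes crossed the detection limit. On all 3 arrays at 25 °C and on none at 15 °C, 416 probes were well above background, but only 184 of them were called higher, and for 122 the lower bound on the fold, taken against the weakest signals well above background, was under 1. For 11 the fold was at least 4. The reverse, all 3 arrays at 15 °C and none at 25 °C, held for 27 probes, of which 26 were called lower. Their bounds ran from 1.82-fold to 9.36-fold, with a median of 2.92-fold. The larger first group goes with the larger share of probes well above background on the arrays at 25 °C, and the part of that share in the result was not tested. Of the 416 probes, 106 were well above background on all 3 water arrays at 25 °C and 175 on all 3 water arrays at 15 °C. A further 1545 probes were well above background on a mix of the 6 arrays, and 11215 were so on all 6.

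Probe CUST_11992_PI426483990 (contig JFC28148_1_code) showed the largest rise. Its log2 signals were 0.55, 1.94 and 2.91 in poly(I:C) fish at 25 °C, against -5.30, -6.38 and -6.12 at 15 °C. All 3 warm arrays were far above background and none of the cool arrays was. The change was at least 78.6-fold on this scale (7.74 log2 by the fit, SE 0.59, limma adjusted p = 6.2e-09). With normexp it was 4.67 log2, less than that bound and less than the rise of the next probe. Without replicate 1 at 25 °C it was 8.36. On none of the 6 water arrays at 3 h was it well above background. At 24 h no poly(I:C) array at 25 °C was well above background, whereas those at 15 °C stood at 1.26, -0.53 and -0.69.

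Probe CUST_13312_PI426483990 (contig JFC03172_1_code) had log2 signals of 4.60, 4.77 and 5.64 at 25 °C, against -3.31, -1.55 and -1.34 at 15 °C. It was well above background on all 6 arrays and the groups lay far apart. The change was 7.07 log2 (SE 0.89, limma adjusted p = 3.0e-06). In water at 15 °C and 3 h it stood at -5.26 and -5.64 on the slide 1 arrays, neither well above background. On the slide 2 array of that group it stood at -1.25, well above background. With the slide as a block the change was 2.87 (SE 1.15, limma adjusted p = 0.085) and was no longer called. With normexp it was 6.42, and without replicate 1 at 15 °C 6.45. At 24 h it was at -4.43 ± 0.49 in poly(I:C) fish at 25 °C and at 2.11 ± 0.31 at 15 °C (SD, n = 3 each).

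Probe CUST_9137_PI426483990 (contig JFC06955_1_code) fell most. Its log2 signals were -4.49, -4.15 and -5.27 at 25 °C, the last of them not well above background, against 0.64, 0.87 and 0.49 at 15 °C. The change was -5.30 log2 (SE 0.29, limma adjusted p = 1.3e-10), and -3.39 with normexp. In water fish at 3 h it was 0.03 ± 0.17 at 25 °C and 0.97 ± 0.37 at 15 °C (SD, n = 3 each). That water change of -0.94 was called as well (SE 0.29, limma adjusted p = 0.022). Among the 4 groups at 3 h the warm poly(I:C) arrays stood furthest apart. At 24 h it was back at 0.33 ± 0.06 in poly(I:C) fish at 25 °C, against -1.61 ± 0.48 at 15 °C (SD, n = 3 each).

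Probe CUST_5622_PI426483990 (contig JFC18874_1_code) departed in the same 2 groups, warm poly(I:C) fish at 3 h and cool poly(I:C) fish at 24 h. Its log2 signals were -3.90, -4.52 and -4.29 at 25 °C, against 0.27, -0.36 and -0.08 at 15 °C. The groups lay far apart, and the change was -4.18 (SE 0.32, limma adjusted p = 6.2e-09), and -2.70 with normexp. The 6 water arrays at 3 h lay between -0.37 and 0.65. In poly(I:C) fish at 24 h it was at 0.12, 0.09 and -0.30 at 25 °C, and low at 15 °C, at -3.01, -4.03 and -2.51.

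**Figure D2:**
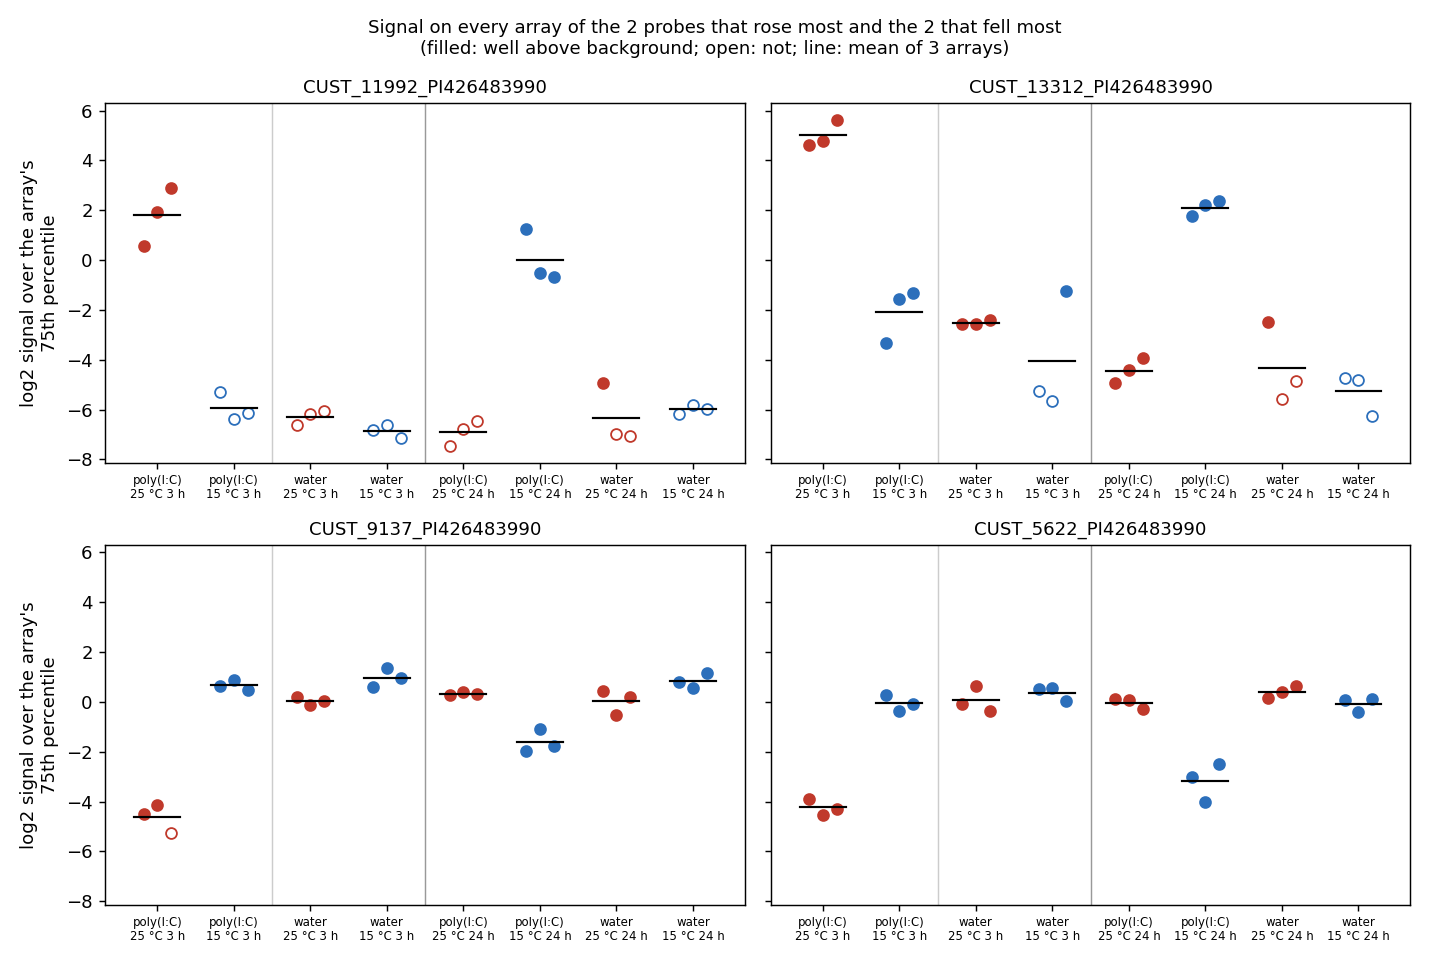
Log2 signal over the 75th percentile of the array (vertical axis) in all 8 groups (horizontal axis), with 1 point per array, for the 2 probes that rose most at 25 °C and the 2 that fell most. Red marks 25 °C and blue 15 °C, open points are not well above background, and lines are means of 3 arrays. In each panel warm poly(I:C) fish at 3 h and cool poly(I:C) fish at 24 h depart in the same direction, and warm poly(I:C) fish at 24 h lie near the water arrays.

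The medians of all large changes also departed most in those 2 groups. The second took part in choosing the probes only through the filter and the spread per probe, which the fit shares over all groups. Of the 264 probes higher by at least 4-fold, 216 were raised by poly(I:C) over water in cool fish at 24 h (81.8%, against 18.9% of all tested probes). Of the 206 lower, 151 were lowered there (73.3%, against 18.8%). The 264 probes higher by at least 4-fold had a median level of 2.81 log2 above the mean of the 4 water groups at 25 °C and 3 h, against 0.17 at 15 °C and 3 h. They stood at a median of 0.45 in poly(I:C) fish at 25 °C and 24 h, against 2.56 at 15 °C and 24 h. In the 4 water groups their medians lay between -0.31 and 0.19. The 206 probes lower by at least 4-fold had medians of -2.14 at 25 °C and 0.26 at 15 °C at 3 h, and of -0.38 at 25 °C and -1.21 at 15 °C at 24 h. Their water medians lay between -0.26 and 0.23.

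**Figure D3:**
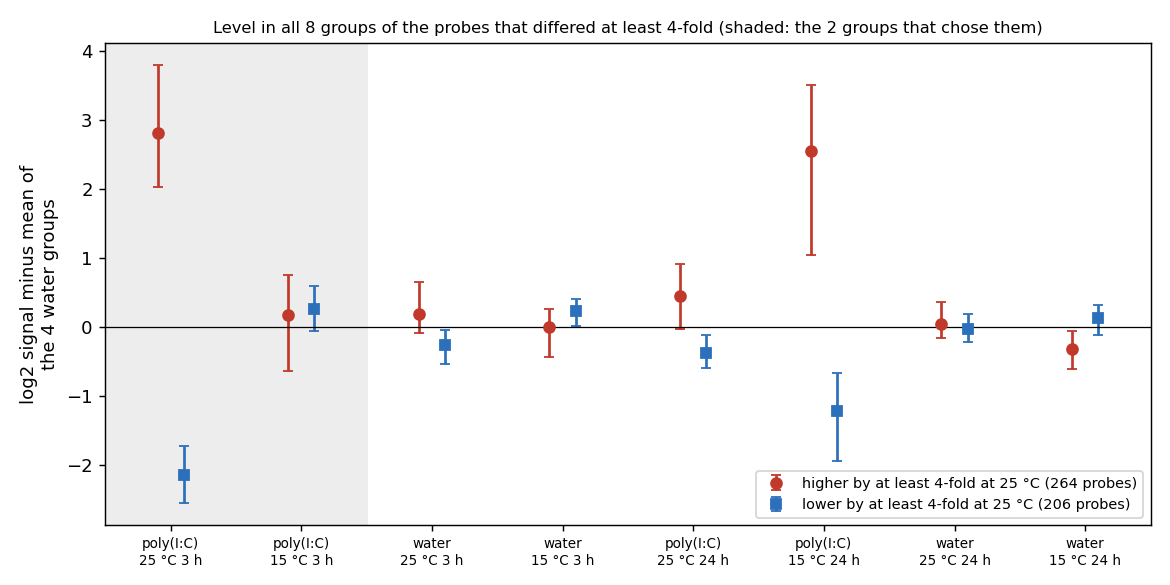
Median (points) and interquartile range (bars) over probes of the log2 signal minus the mean of the 4 water groups (vertical axis) in the 8 groups (horizontal axis). Red circles are the 264 probes higher by at least 4-fold at 25 °C and blue squares the 206 lower. The shaded groups chose the probes, and among the other 6 groups cool poly(I:C) fish at 24 h depart most, with medians of 2.56 and -1.21.

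Set against water at the same temperature, the gap of poly(I:C) from water was more often larger at 25 °C, among probes called and not called alike. These differences share the arrays of the comparison and are given side by side, with no test. At 25 °C the gap crosses slides, with poly(I:C) on slide 2 and water on slide 3, whereas at 15 °C poly(I:C) and 2 of 3 water arrays share slide 1. For all 2724 probes called higher, poly(I:C) minus water had a median of 0.58 log2 at 25 °C (interquartile range 0.18 to 1.14) and of -0.11 at 15 °C (-0.27 to 0.08). For the 3588 called lower the medians were -0.67 (-1.03 to -0.35) at 25 °C and -0.03 (-0.17 to 0.13) at 15 °C. The gap from water was larger at 25 °C for 2167 of the probes called higher (79.6%) and 3125 of those called lower (87.1%). It was larger for 4753 of the 7065 not called (67.3%). These classes together are all tested probes, so the share over all lies above 67.3%. The called probes thus differ less from all tested probes than from those not called. The 79.6% may lie close to the share over all and is not read as particular to the probes called higher.

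Whether temperature acted without poly(I:C) was read in the water fish at 3 h. Their arrays are not those of the comparison, but the fit shares the spread per probe between them. All 3 warm water arrays lay on slide 3 and the cool ones on slides 1 and 2, so slide and temperature cannot be told apart here either. Of 13377 probes 3676 differed between 25 °C and 15 °C in water (27.5%), 1873 higher (14%) and 1803 lower (13.5%). Only 834 were called with normexp, 1066 with no other groups fitted and 83 with the slide as a block. With spike-in scaling 680 of 940 called probes were higher. Of the 2724 probes higher in poly(I:C) fish 675 were also higher in water (24.8%) and 226 were lower (8.3%). Of the 3588 lower in poly(I:C) fish 970 were also lower in water (27%) and 122 were higher (3.4%). Across probes, which are not independent, the temperature changes of poly(I:C) and water fish had a Pearson r of 0.33 (Spearman 0.35, 13377 probes), a description only, as both comparisons have 15 °C arrays on slide 1.

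The interaction tested whether the temperature change differed between poly(I:C) and water. Its groups lie on different slides: warm poly(I:C) on slide 2, cool poly(I:C) on slide 1, warm water on slide 3 and cool water on slides 1 and 2. Slide is therefore not separated from the interaction. It passed the threshold for 4042 probes (30.2%), with 1750 above 0 (13.1%) and 2292 below (17.1%). The split was 2786 positive and 1279 negative with median scaling, 651 to 549 with normexp and 597 to 558 with a slide block. Among the 2724 probes higher in poly(I:C) fish, 1406 had a positive interaction (51.6%) and 21 a negative one. Among the 3588 lower, 1694 had a negative interaction (47.2%) and 10 a positive one. The interaction contains the arrays of the comparison, so these shares follow in part from the choice of probes.

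The called probes fall into patterns by these tests. For 1053 probes higher at 25 °C with poly(I:C), the interaction was positive and water not called, with median changes of 1.04 log2 in poly(I:C) fish and -0.08 in water fish. Another 527 were higher in both with no called difference, at 0.86 with poly(I:C) and 0.84 in water. The 127 higher in both and more so with poly(I:C) had medians of 1.60 and 0.64. For 226 the direction was opposite, at 0.81 with poly(I:C) and -0.61 in water, and 770 had neither a called change in water nor a called interaction. Among the probes lower at 25 °C the corresponding numbers were 1344, 732, 228, 122 and 1152.

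**Figure D4:**
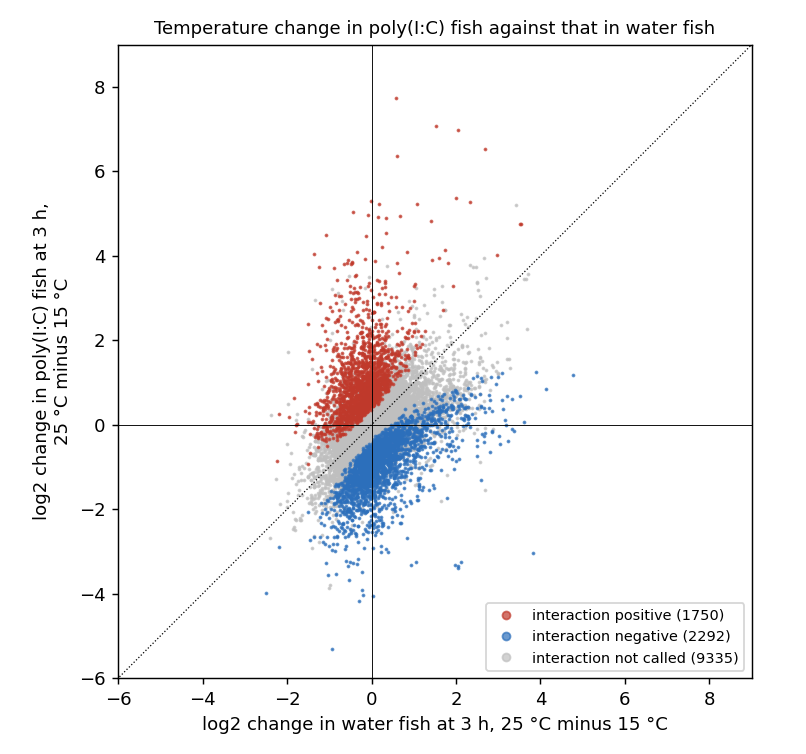
Log2 change between 25 °C and 15 °C at 3 h in poly(I:C) fish (vertical axis) against that in water fish (horizontal axis), 1 point per tested probe. Red points have a positive interaction (1750), blue a negative one (2292), grey no called interaction, and the dotted line marks equal changes. Changes in poly(I:C) fish reach 7.74 log2 and those in water fish 4.76 log2.

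After CUST_11992_PI426483990, at 7.16 (SE 0.83), the most positive interaction was that of a probe to a database sequence, CUST_377_PI426483993. In poly(I:C) fish its log2 signals were 2.54, 2.08 and 1.19 at 25 °C, against -6.20, -3.65 and -3.45 at 15 °C. The cool array at -6.20 and all 6 water arrays at 3 h, between -7.23 and -6.32, were not well above background. The interaction was 5.77 (SE 0.78, limma adjusted p = 2.3e-05), a size not fully measured on the water side. It was 4.11 with normexp and 4.89 without replicate 1 of poly(I:C) at 15 °C.

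The most negative interactions by the fit were those of CUST_3444_PI426483990 and CUST_7260_PI426483990. Probe CUST_7260_PI426483990 (contig JFC24307_1_code) had log2 signals of -1.30, -1.04 and -0.94 in poly(I:C) fish at 25 °C, against 1.89, 2.23 and 2.74 at 15 °C. In water it had -0.81, -1.80 and -0.05 at 25 °C, against -3.06, -2.79 and -2.98 at 15 °C. Its temperature change was -3.38 log2 with poly(I:C) and 2.06 log2 in water. The interaction was thus -5.44 (SE 0.55, limma adjusted p = 1.1e-06) and with normexp -4.52. It was well above background on all 12 arrays at 3 h and on 1 of the 12 arrays at 24 h. Probe CUST_3444_PI426483990 (contig JFC24335_1_code) reached -6.87 for the interaction (SE 1.05, limma adjusted p = 8.1e-05). In water it averaged -3.32 ± 1.46 at 25 °C and -7.15 ± 0.32 at 15 °C (SD, n = 3 each), with 2 of 3 warm arrays and no cool array well above background. The size of the interaction and its rank thus rest on signals not well above background. Without replicate 1 of water at 25 °C it was -6.15 and without replicate 3 -7.61, and with quantile scaling -6.17. None of its warm poly(I:C) arrays was well above background and 2 of 3 cool ones were. With all 3 cool arrays counted, the bound put it at least 2.83-fold lower at 25 °C on this scale. That temperature change fell short of the bound with normexp and was not called (-0.57, limma adjusted p = 0.61). With normexp its interaction was -2.03 (limma adjusted p = 0.12) and with the slide as a block -3.41 (limma adjusted p = 0.076).

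The probes with the largest temperature change in water behaved in different ways with poly(I:C). Probe CUST_184_PI426483990 (contig JFC24126_1_code) was at 0.92, -1.06 and -2.17 in water at 25 °C, against -4.45, -6.81 and -5.34 at 15 °C, where no array was well above background. It was at least 19.6-fold higher in warm water fish (4.76 log2 by the fit), while in poly(I:C) fish the change was 1.19 (SE 0.80, limma adjusted p = 0.24). The water change fell below that bound, to 3.91 log2, without replicate 1 at 25 °C, to 4.12 without replicate 2 at 15 °C and to 2.42 with normexp, and was 5.46 without replicate 3 at 25 °C. Probe CUST_1404_PI426483990 (contig JFC18434_1_code) changed by 4.12 (SE 0.81, limma adjusted p = 0.0011) in water and by 0.84 (SE 0.81, limma adjusted p = 0.41) with poly(I:C). Its water change was 3.40 without replicate 1 and 4.91 without replicate 3 at 25 °C, 4.87 without replicate 1 at 15 °C and 3.1 with normexp. When no other groups were fitted, the changes with poly(I:C) were called, at an adjusted p in limma of 0.015 for CUST_184_PI426483990 and 0.040 for CUST_1404_PI426483990. With the slide as a block neither change in water was called, at 1.94 (SE 1.51) for CUST_184_PI426483990 and 2.44 (SE 1.38) for CUST_1404_PI426483990.

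Probe CUST_10148_PI426483990 (contig JFC14084_1_code) was lower at 25 °C in both treatments. It had log2 signals of -4.44, -3.74 and -3.83 in poly(I:C) fish at 25 °C, against 0.03, 0.02 and -0.11 at 15 °C. In water it had -1.94, -2.39 and -2.82 at 25 °C, against 0.12, 0.32 and -0.07 at 15 °C. The 12 arrays separated by temperature in both treatments, with changes of -3.98 (SE 0.22) with poly(I:C) and -2.51 (SE 0.22) in water, -2.53 and -1.77 with normexp, and the interaction of -1.47 was called (SE 0.31, limma adjusted p = 0.0013). Probe CUST_7276_PI426483990 (contig JFC07994_1_code) changed by -2.69 (SE 0.60, limma adjusted p = 0.0012) with poly(I:C) and -2.41 (SE 0.60, limma adjusted p = 0.0063) in water. On none of the warm poly(I:C) arrays was it well above background, and the bound put it at least 5.56-fold lower there on this scale. The change with poly(I:C) fell short of that bound with normexp and, at -2.41, without replicate 2 at 15 °C. Its calls were lost with normexp, at -1.05 with poly(I:C) and -0.50 in water, and with the slide as a block, at -2.55 with poly(I:C) and -2.63 in water. The water call was also lost when no other groups were fitted (-2.41, limma adjusted p = 0.087), and without replicate 2 at 25 °C the water change was -3.25.

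At 24 h the temperature change of poly(I:C) fish, measured on other arrays, ran more often the other way than the same way for the same probes. Its 15 °C arrays also enter the late poly(I:C) effect in cool fish, there with the opposite sign. The reversal and the match with that late effect are thus not separate observations. The 15 °C arrays of both times lay on slide 1. The 25 °C arrays lay on slide 2 at 3 h, and at 24 h on slide 2 (replicate 1) and slide 3 (replicates 2 and 3). At 24 h 5619 of 13377 probes were called (42%), 2581 higher at 25 °C (19.3%) and 3038 lower (22.7%). With spike-in scaling 1964 of 2721 called probes were higher and 757 lower, and the median over all probes was 0.26 log2, against -0.04. With normexp that median was 0.31, 1155 of 2560 called probes were lower, and 85.9% of the 5619 probes kept their direction. The counts that follow are those of the main setting and would be smaller under these alternatives where the calls are fewer. Of the 2724 probes higher at 3 h 1177 were lower at 24 h (43.2%) and 323 were higher (11.9%). Of the 3588 lower at 3 h 1231 were higher at 24 h (34.3%) and 535 were lower (14.9%). Of the 264 probes higher by at least 4-fold at 3 h 192 were lower at 24 h (72.7%) and 8 were higher, with a median change of -2.12 log2. The 206 lower by at least 4-fold gave 111 higher at 24 h (53.9%), 16 lower and a median of 0.80. Across the 13377 probes the changes at the early and the late time correlated at -0.40 (Pearson) and -0.28 (Spearman).

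The late response in cool fish was used as a list of poly(I:C) probes. Its poly(I:C) arrays are also the 15 °C side of the temperature change at 24 h, so the list is not separate from that result. The arrays of the list are not among the 6, but the list is not fully independent of them. The 6 took part through the filter and through the spread per probe, which the fit shares over all groups. Over water it called 5049 of 13377 probes (37.7%), of which 2534 were raised (18.9%) and 2515 lowered (18.8%). Of the 2534 raised probes 1496 were higher at 25 °C than at 15 °C in poly(I:C) fish at 3 h (59%), and 110 were lower (4.34%), with a median change of 0.63 log2, against 20.4%, 26.8% and -0.05 over all tested probes. Of the 2515 lowered probes 87 were higher (3.46%) and 1684 lower (67%), with a median of -0.74. The remaining 8328 probes had 13.7% higher, 21.5% lower and a median of -0.05.

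The shares were larger among strong responders. Of the 371 probes raised at least 4-fold at 15 °C and 24 h, 319 were higher in the warm at 3 h (86%) and 2 were lower, with a median change of 1.90 log2 (interquartile range 1.26 to 2.73). Their median change in water at 3 h was -0.12. Of the 170 lowered at least 4-fold, 138 were lower (81.2%) and 6 higher, with a median of -1.55 (-2.06 to -1.11) and a water median of 0.02. With the slide as a block these medians were 1.78 and -1.48, with 238 called higher and 93 lower. In the full lists normexp left 877 higher and 915 lower, the slide as a block 853 and 837, and spike-in scaling left 620 of the raised probes higher. The poly(I:C) arrays of this list lay on slide 1 and its water arrays on slide 2, whereas at 3 h the 25 °C group lay on slide 2 and the 15 °C group on slide 1. Slide 1 is thus on top in the list and slide 2 in the comparison. The late effect in cool fish and the early temperature change correlated at 0.63 (Pearson) and 0.56 (Spearman) over the 13377 probes.

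**Figure D5:**
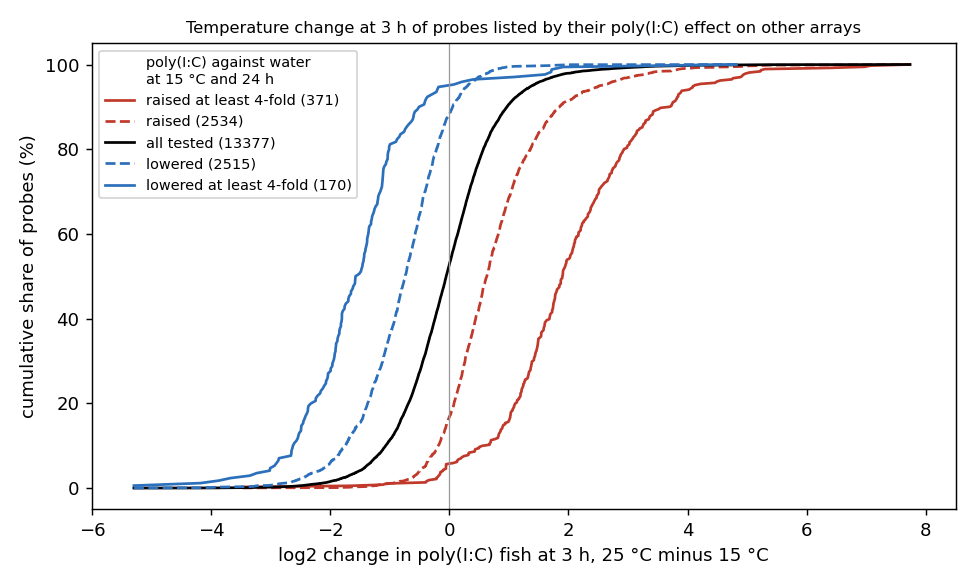
Cumulative share of probes (vertical axis, %) by their log2 change between 25 °C and 15 °C in poly(I:C) fish at 3 h (horizontal axis), for probes listed by the late (24 h) poly(I:C) effect in cool fish, measured on other arrays. The black curve is all 13377 probes, red curves are raised and blue curves lowered probes, solid where the late effect was at least 4-fold. The curves lie in the order of the late effect, with medians of -1.55, -0.74, -0.05, 0.63 and 1.90 log2 from left to right.

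The array design holds 4 series of probes. The 12935 tested probes of the main contig series (PI426483990) had 20.1% higher, 27% lower and a median change of -0.06. The 334 of series PI426483993, most of whose targets are database sequences, had 26.9% higher, 24.6% lower and a median of 0.13. The 91 of series PI426500383 had 33% higher, 12.1% lower and a median of 0.25. The smallest series, PI420312477, had 17 tested probes, 5 higher and 2 lower. Among the 264 probes higher by at least 4-fold, 30 had database targets, and among the 206 lower 11 did, out of 337 such probes among the 13377 tested. Contig targets made up 234 of the 264 and 195 of the 206, out of 13040 tested. In 3 cases a pair of probes shared a target, with changes of 0.20 and 0.29, 0.30 and 0.62, and -0.23 and 0.08, of which only 0.62 was called.

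Slide and temperature cannot be told apart within the 6 arrays. The slide as a block, fitted over all 24 arrays, called 2819 probes, 1435 higher and 1384 lower, and 98.6% of the 6312 probes kept their direction, at a median size of 0.83. Its link between slides 1 and 2 rests on water at 15 °C and 3 h, as 1 array (replicate 3) on slide 2 against 2 on slide 1. That 1 array had the highest 75th percentile of the 24, at 863.5 units. Its spike-in level over that percentile was the lowest, at -0.89 log2, against 0.50 and -0.19 for replicates 1 and 2. The median size of the difference between slides 2 and 1 in this group was 0.24 log2, against 0.23 between the 2 arrays of the group on slide 1. These sizes are not alike, as the first sets 1 array against a mean of 2 and the second 1 array against 1. A mean of 2 arrays carries less noise, so the closeness of the sizes does not show that the slides were equal. The slide difference was of the same sign as the temperature change and at least as large for 24 probes higher at 25 °C (0.882%) and 66 lower (1.84%), against 14.5% of all tested probes. As the called probes were chosen for clear changes, the smaller shares follow in part from the choice. The signs matched for 50.1% of the probes higher and 64.9% of those lower, against 53.1% of all. For changes of at least 4-fold they matched for 62.9% of the probes higher and 71.2% of those lower. With the slide as a random block, at a consensus correlation of 0.055, 5881 probes were called.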

How the data were processed

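The scanner files, deposited by the authors, give linear spot intensity values from which Agilent Feature Extraction had subtracted background (version 10.7.3.1 per the file headers, 9.5.3.1 per the submitters' processing notes) and not normalised between arrays. The deposited value table holds log2 values, with method and probe centring unstated. After removal of 1 constant per probe, 100% of them lay within 0.02 of the values used here, in scale and direction, with column medians between -0.16 and 0.11. It served as an alternative.

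Control spots and spots with outlier marks (2 to 22 per array) were left out, spots of the same probe were averaged on the log2 scale, and arrays were scaled by subtracting their own 75th percentile. Values left without a spot (53 over all arrays, touching 7 tested probes on the 6 arrays) stayed missing. One limma model (version 3.58.1, R 4.3.3) held the 8 group means over 24 arrays, leaving 16 residual degrees of freedom beside a prior of 2.65, and p-values were adjusted over 13377 probes. No probe was saturated. The files hold no mean spot signal, so normexp (offset 50) used the median signals. Spike-in scaling was chosen after seeing the data.

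The 2 probes that rose and the 2 that fell most among called probes with non-overlapping groups were named per comparison (interactions: called only). For a bound, each dim array counted at its lowest signal well above background, or at the probe's own where that was higher. Members and lists were chosen with earlier results of these data known. Same-numbered arrays correlated at 0.31, 0.12 and 0.11 in the water groups at 3 h (deviations from group means). Differently numbered arrays there ran from -0.29 to 0.23, the highest of them above the 0.12 and 0.11. By the rule used this counts as pairing there, although the labels give no shared source and the evidence is weak. The fit was tested on simulated data. The number of arrays limits the precision.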

Additional observations from a re-analysis of the deposited data

Results flagged for a closer look

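The temperature change at 3 h differed between poly(I:C) and water fish for 4042 probes by the interaction test, in which slide is not separated from treatment and temperature. The number was 1155 with the slide as a block, 1200 with normexp and 802 with spike-in scaling. For the probes named above, the change with poly(I:C) minus that in water was 7.16 log2 (CUST_11992_PI426483990), 5.77 (CUST_377_PI426483993) and 5.55 (CUST_13312_PI426483990) on the positive side. On the negative side it was -6.87 (CUST_3444_PI426483990), -5.44 (CUST_7260_PI426483990), -4.36 (CUST_9137_PI426483990), -3.88 (CUST_5622_PI426483990), -3.57 (CUST_184_PI426483990), -3.28 (CUST_1404_PI426483990) and -1.47 (CUST_10148_PI426483990). The sizes for CUST_11992_PI426483990, CUST_377_PI426483993, CUST_3444_PI426483990 and CUST_184_PI426483990 rest in part on groups in which no array was well above background, and are not exact. That for CUST_13312_PI426483990 is not exact either. In cool water fish at 3 h it averaged -4.05 ± 2.43 (SD, n = 3), with only 1 array well above background. The adjusted p in limma ran from 4.9e-07 (CUST_9137_PI426483990) to 0.037 (CUST_1404_PI426483990).

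A signal also appeared among the control spots, which enter the comparisons only through spike-in scaling. Of the 6 spike-in probes well above background on all 24 arrays, 1 was higher relative to the mean of the other 5 in poly(I:C) fish than in water fish. At 25 °C and 3 h it stood at -2.78 ± 0.38 log2 with poly(I:C) and at -3.72 ± 0.05 in water (SD, n = 3 each), a difference of 0.95. At 15 °C and 3 h it stood at -2.47 ± 0.17 with poly(I:C) and at -3.68 ± 0.05 in water (SD, n = 3 each), a difference of 1.21. The 4 water groups lay between -3.73 and -3.68. Spike-in scaling used all 6 of these probes, this one included. No test was run, and the probe was singled out after its values were seen.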

How the results depend on the processing

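For the temperature change in poly(I:C) fish at 3 h, quantile scaling (6064 calls), the deposited table (6295), no filter (6323), a stricter filter (5762), another prior (6329), the compared groups alone (6408) and a threshold of 0.01 (4691) stayed within 1.5 times of 6312, and leaving out 1 array gave 5481 to 5858. Normexp called 2732 there, 834 for temperature in water, 1200 for the interaction, 2560 for temperature at 24 h and 2216 for the late poly(I:C) effect in cool fish. The slide as a block called 2819, 83, 1155, 1476 and 2610, and spike-in scaling 2932, 940, 802, 2721 and 1944, in the same order. Temperature in water had 1066 calls with only its own groups fitted and 2020 at 0.01, and the interaction 2328 at 0.01. With the replicate block 6225 probes were called for the main comparison and 3545 for water, and no count moved by over 1.5 times. Same-numbered arrays of the 2 poly(I:C) groups at 3 h correlated at 0.00, -0.07 and 0.19, so their numbers do not pair them. Among the values of named probes under alternatives, 361 kept direction and side of the threshold, 11 lost and 2 gained a call, and 0 reversed. The causes were not tested. Signals near background limit the folds of dim probes, and no alternative separates slide from temperature among the 6 arrays.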
